A study of Mus musculus with 4 samples.

Results

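The 41 genes described here encode the protein machinery with which a nerve terminal releases neurotransmitter. They were chosen by name, as well-known components of vesicle priming, the active zone, membrane fusion, calcium sensing and the vesicle itself. The choice was made with earlier results of these data known. All 41 were found among the 33696 genes of the deposited tables. By role they comprised 3 priming factors, 13 active zone scaffold proteins, 11 SNARE proteins and regulators of fusion, 7 calcium sensors and relatives, and 7 proteins of the vesicle membrane and vesicle pool.

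Synaptic vesicles dock at a specialised patch of the presynaptic membrane, the active zone, where scaffold proteins such as RIM, ELKS, liprin-α, Bassoon and Piccolo hold them close to calcium channels. Munc13 proteins then prime them by helping syntaxin, SNAP-25 and synaptobrevin to assemble into the SNARE complex, complexins hold the complex ready, and synaptotagmins trigger fusion when calcium enters. Most of these proteins come as families of paralogues, and neurons differ in which paralogue they use.

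The study profiled single nuclei of the cortex of wild-type C57BL/6JRj female mice about 12 weeks old. The non-pregnant control group held 2 animals and the pregnant group, taken at E13.5 (the embryonic day) after timed mating, held 2 animals, with 1 library each. All nuclei were isolated from microdissected tissue in buffers containing actinomycin D, which blocks transcription, and were pelleted through iodixanol. The sources used here do not name the cortical area.

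The 4 libraries held 26816 barcodes, between 6357 and 6932 each, and 97875766 to 116860425 unique molecular identifiers (UMIs, the count of distinct captured RNA molecules), with a median of 13187.5 to 17723 per nucleus. Any pair of libraries shared 20 to 31 barcode sequences. After filters 25030 nuclei remained in 31 clusters, and marker lists picked out 15 cell types that had 50 nuclei or more in each of the 4 libraries: 7 excitatory neuron types, 4 inhibitory ones and 4 glial ones. The names below stand for clusters that resemble a type by its markers (L2/3 IT-like, Sst-like and so on), and the Vip cluster also carried markers of the Sncg list. IT, ET, CT and NP denote intratelencephalic, extratelencephalic, corticothalamic and near-projecting neurons.

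The make-up of the libraries differed between the groups. Excitatory neurons made up 68.6% and 68.8% of the kept nuclei of the non-pregnant libraries and 54.2% and 51.4% of the pregnant ones. A set of 4 clusters, numbered 22, 27, 29 and 30, was nearly limited to pregnant animals, with 53 and 1 nuclei in the non-pregnant libraries and 807 and 758 in the pregnant ones. By class markers all 4 were excitatory, but they were kept out of the excitatory sums and of the excitatory shares above. They held 0.815% and 0.0168% of the non-pregnant nuclei and 13.0% and 11.9% of the pregnant ones. The haemoglobin gene Hbb-bs was higher in the pregnant libraries in excitatory, inhibitory and all 4 glial sums, for instance 1.39 and 0.703 CPM (the gene's UMIs scaled to a common library total) against 8.90 and 7.48 in excitatory sums. Cluster 18, which was left unnamed, was led by Hbb-bs and had a median of 1333.5 UMIs per nucleus. It held 0.5998% and 0.5716% of the non-pregnant nuclei and 1.702% and 6.4074% of the pregnant ones. Its nuclei entered the sums over all nuclei but no class or type sum, and their part in the results was not tested. Only 2 animals per group were sampled, so every p-value rests on these 4 animals. The edgeR tests below set the group difference against the variation within groups, which was estimated with help from all genes tested.

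Levels are CPM of the UMIs summed over the nuclei of a type in a library. Values of 4 libraries are given in the order non-pregnant 1, non-pregnant 2, pregnant 1 and pregnant 2. None of the 41 genes was among those used to cluster the nuclei, and differences in level between types are described without a test. CPM values are not divided by gene length, so levels are compared between types and not between genes, and a share of a family's UMIs is not a share of molecules. Where UMIs of several types were summed, fewer cells of a type and less RNA per cell cannot be told apart.

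Across the 11 neuron types the 41 genes divided into a uniform and a selective part. The mean level in the highest type exceeded that in the lowest by less than 2-fold for 12 genes, by 2-fold to 5-fold for 13, by 5-fold to 20-fold for 9 and by more for 7, with a median of 2.98-fold. The 7 most selective were Unc13c, Sv2c, Cplx3, Syt2, Sv2b, Syt10 and Doc2b. By role, the median span was 2.36-fold for the SNARE group, 2.35-fold for the scaffold, 3.09-fold for the vesicle proteins, 9.30-fold for the calcium sensors and 11.2-fold for the 3 priming factors.

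The upstream sequences of 4 genes are shown because they lie at or near the ends of this range. Unc13c, Sv2c and Cplx3 were limited to few neuron types, while Syp, which encodes the vesicle protein synaptophysin, differed by only 1.29-fold. Each run is the 250 bases before the transcript start from RefSeq, build GRCm38.p6, written 5′ to 3′ on the gene's strand, with CpG dinucleotides in capitals: Unc13c at chr9:73969038-73969287 (minus strand), Sv2c at chr13:96132578-96132827 (minus strand), Cplx3 at chr9:57606282-57606531 (minus strand) and Syp at chrX:7638330-7638579 (plus strand).
Unc13c: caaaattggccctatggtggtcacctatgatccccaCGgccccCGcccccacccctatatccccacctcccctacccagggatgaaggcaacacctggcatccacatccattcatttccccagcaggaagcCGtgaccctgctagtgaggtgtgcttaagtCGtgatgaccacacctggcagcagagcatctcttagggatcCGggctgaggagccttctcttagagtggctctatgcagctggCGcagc
Sv2c: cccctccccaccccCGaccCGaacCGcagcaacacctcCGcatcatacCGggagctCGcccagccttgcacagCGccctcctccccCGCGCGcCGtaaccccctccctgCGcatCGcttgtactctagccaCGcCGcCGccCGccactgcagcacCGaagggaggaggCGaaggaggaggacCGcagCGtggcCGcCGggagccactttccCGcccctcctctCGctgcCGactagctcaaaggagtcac
Cplx3: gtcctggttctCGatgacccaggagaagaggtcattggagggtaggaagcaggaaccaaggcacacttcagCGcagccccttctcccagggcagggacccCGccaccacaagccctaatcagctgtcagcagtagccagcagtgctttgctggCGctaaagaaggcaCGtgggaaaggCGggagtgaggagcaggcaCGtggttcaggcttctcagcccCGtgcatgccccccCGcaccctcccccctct
Syp: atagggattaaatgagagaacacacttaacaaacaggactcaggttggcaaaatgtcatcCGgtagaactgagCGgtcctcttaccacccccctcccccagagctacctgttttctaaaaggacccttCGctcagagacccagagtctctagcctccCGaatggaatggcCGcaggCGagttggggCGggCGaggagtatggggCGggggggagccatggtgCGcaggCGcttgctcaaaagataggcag
The Sv2c window held 26 CpG dinucleotides, the Syp window 11, the Cplx3 window 9 and the Unc13c window 6. The table used held 39 such windows for 32 of the 41 genes. A CpG-rich window (GC above 50% and an observed to expected CpG ratio above 0.6) was found in 18 of 39 member windows, or 46.2%, and in 30.8% of the 32851 windows of all genes. The Sp1-type motif GGGCGG, searched on both strands, was present in 61.5% of member windows and 32.7% of all windows, and TATAAA in 5.13% and 12.4%. These are matches of letters in a window and describe no binding.

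**Figure D1:**
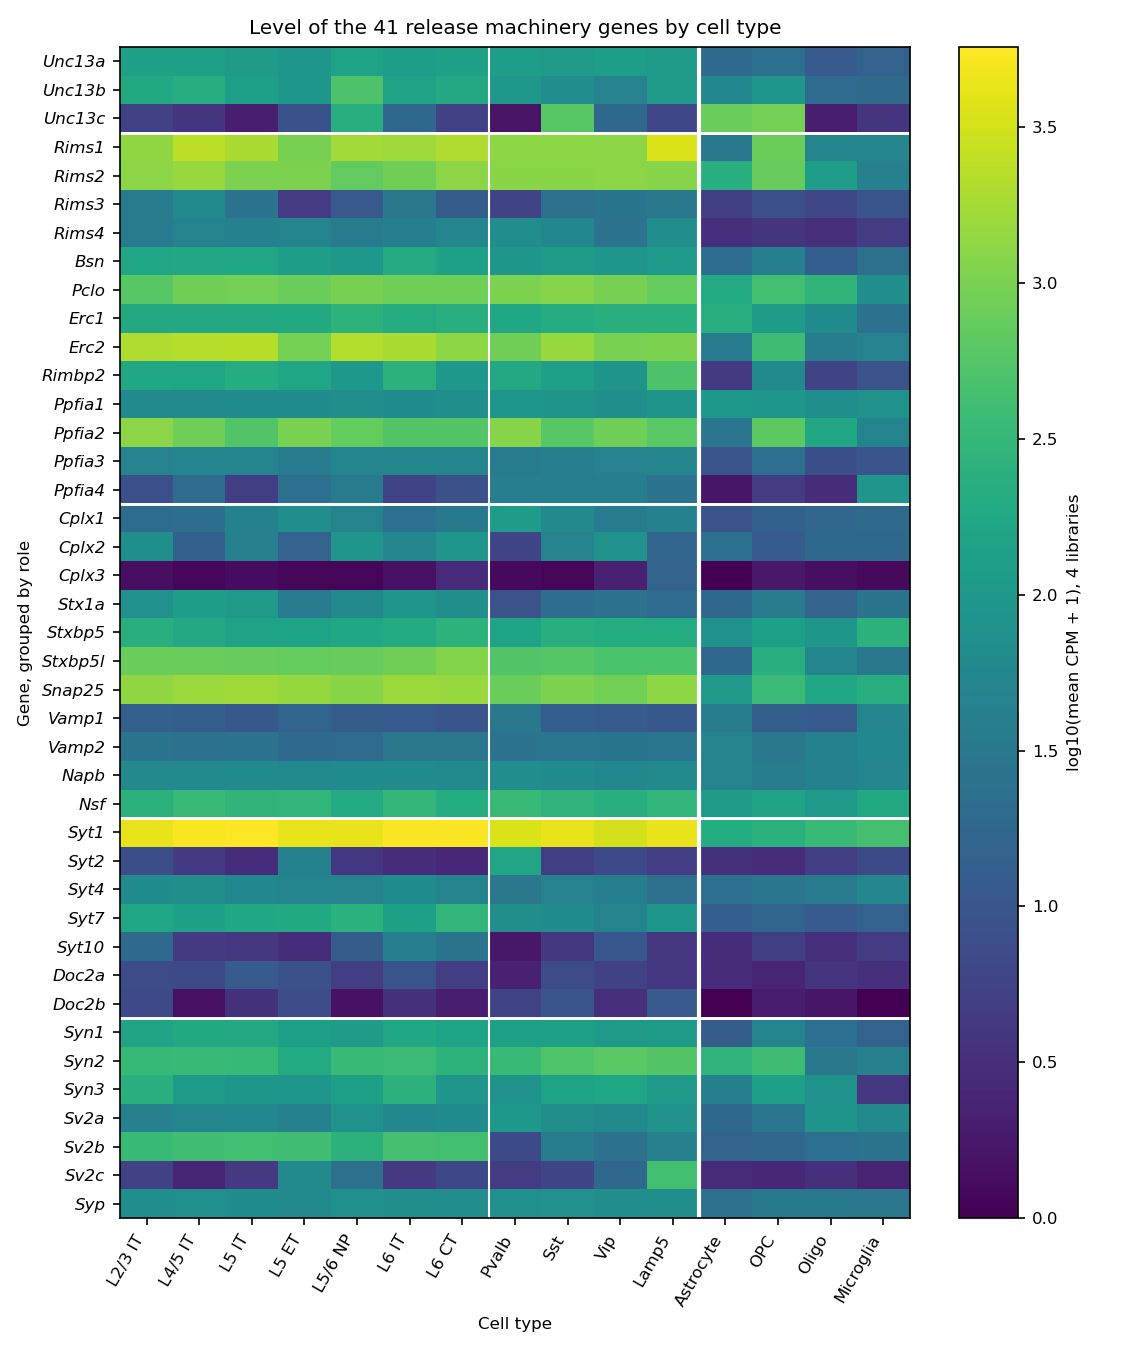
Mean level of the 41 genes (rows, grouped by role) in 11 neuron types and 4 glial types (columns), as log10 of the mean CPM of 4 libraries plus 1. Syt1 stood at 9.13% of its excitatory level or less in each glial type, while Rims1 reached 46.8% in oligodendrocyte precursors and 2.86% or less in the other three, and Unc13c was highest in the Sst, L5/6 NP, astrocyte and oligodendrocyte precursor columns.

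The 3 Munc13 genes, which encode the priming factors, differed in how evenly they were spread. Unc13a, the form of most central synapses, was nearly uniform, from 159, 137, 162 and 145 CPM in L5/6 NP neurons to 93.1, 91.6, 93.3 and 93.4 CPM in L5 ET neurons. Neighbouring types in that order overlapped, except that L5 ET lay below all others. Unc13b was highest in L5/6 NP neurons at 528, 461, 553 and 519 CPM, clear of L4/5 IT neurons at 222, 236, 197 and 220 CPM. Its lowest level was 39.8, 44.0, 48.0 and 51.5 CPM in Vip neurons.

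Unc13c, a form best known from cerebellar granule cells, had the widest range of the 41 genes. Sst interneurons carried 586, 667, 584 and 557 CPM, and L5/6 NP neurons 217, 144, 295 and 259 CPM. Next came Vip, at 11.5, 17.4, 7.04 and 33.3 CPM, and L6 IT at 11.7, 6.53, 25.9 and 24.2 CPM. Sst and L5/6 NP each stood clear of the next type, whereas Vip and L6 IT overlapped.

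Pvalb interneurons, the other large inhibitory type, held 0, 0, 1.14 and 1.17 CPM of Unc13c, from 9 UMIs in all. In L5 IT neurons the level lay between 0.342 and 2.00 CPM, and in L4/5 IT neurons between 2.46 and 3.13 CPM. Of all Munc13 UMIs in Sst neurons, 77.3% (74.2% to 80.8% over the libraries) came from Unc13c, 13.9% from Unc13a and 8.88% from Unc13b. In L5/6 NP neurons the shares were 25.2%, 17.0% and 57.9% in that order, and in L2/3 IT neurons 1.27%, 41.6% and 57.1%. Vip neurons drew 66.2% from Unc13a and Pvalb neurons 55.1%.

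Among the RIM genes, which tether vesicles and calcium channels at the active zone, Rims1 was highest in Lamp5 interneurons at 3640 CPM on average (3376 to 3944) and lowest in L5 ET neurons at 980 CPM (888 to 1085). Lamp5 stood clear of the next type, L4/5 IT, at 2393 CPM. Rims2 spanned 2.06-fold, from 1485 CPM in L4/5 IT (1461 to 1507) to 722 CPM in L5/6 NP (591 to 814). The short RIM form Rims3 marked L4/5 IT neurons, at 66.7, 60.3, 59.0 and 61.7 CPM, clear of L2/3 IT at 34.3 CPM. It was lowest in L5 ET, at 4.20, 1.68, 3.23 and 4.60 CPM, and in Pvalb, at 4.20, 2.55, 8.47 and 4.38 CPM. Rims4, the other short form, was highest in Pvalb at 68.9 CPM and Lamp5 at 68.2 CPM, which overlapped, and lowest in Vip at 26.3 CPM.

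Rimbp2, which links RIM to calcium channels, was also highest in Lamp5 neurons, at 508, 573, 478 and 454 CPM, 1.92-fold above the next type, L6 IT. The liprin-α gene Ppfia4 was at 41.4 CPM in Sst, 41.3 CPM in Vip and 39.0 CPM in Pvalb, levels that overlapped, and at 4.02 CPM in L5 IT. The remaining scaffold genes varied less. Erc2, an ELKS gene, ranged from 2259 CPM in L5 IT to 881 CPM in Pvalb, Ppfia2 from 1289 CPM in L2/3 IT to 547 CPM in L5 IT, and Bsn, encoding Bassoon, from 194 CPM in L6 IT to 92.1 CPM in Vip. Pclo, encoding Piccolo, spanned 1.95-fold, and Ppfia1, Ppfia3 and Erc1 between 1.51-fold and 1.59-fold.

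Complexins clamp and assist the SNARE complex, and they separated the neuron types sharply. Cplx1 was highest in Pvalb interneurons at 111, 95.1, 140 and 124 CPM, clear of L5 ET at 63.7, 69.7, 70.7 and 65.8 CPM, and lowest in L2/3 IT at 18.9, 16.4, 23.8 and 21.8 CPM. Cplx2 had a different order, with L5/6 NP at 92.9, 109, 77.9 and 77.0 CPM and L6 CT at 95.1, 79.7, 89.3 and 91.7 CPM overlapping at the top, and Pvalb lowest at 3.64, 4.25, 4.58 and 7.60 CPM. Thus 95.7% of complexin UMIs in Pvalb and 82.7% in L5 ET came from Cplx1, against 77.8% from Cplx2 in L2/3 IT and 72.7% from Cplx2 in L6 CT.

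Cplx3, a complexin known from retinal ribbon synapses, was detected mainly in Lamp5 neurons, at 13.3, 13.7, 11.4 and 21.3 CPM, 7.74-fold above L6 CT at 3.26, 2.85, 1.07 and 0.523 CPM. Lamp5 was the one type that used all 3 complexins, with 58.9% of the family's UMIs from Cplx1, 21.2% from Cplx2 and 19.9% from Cplx3.

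The SNARE genes proper were more even, apart from Stx1a. This gene, encoding syntaxin-1A, ranged from 123 CPM in L4/5 IT to 8.96, 5.53, 8.47 and 9.06 CPM in Pvalb. The synaptobrevin gene Vamp1 was highest in Pvalb at 30.2, 26.4, 28.4 and 39.4 CPM, 2.00-fold above L5 ET, whereas its paralogue Vamp2 spanned 1.67-fold. Snap25 ranged from 1695 CPM in L5 IT to 830 CPM in Pvalb. The tomosyn gene Stxbp5l, whose product competes for SNARE assembly, was highest in L6 CT at 1163 CPM and lowest in Vip at 492 CPM. Napb and Nsf, which take the complex apart after fusion, spanned 1.24-fold and 1.73-fold, and the tomosyn gene Stxbp5 1.83-fold.

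Among the calcium sensors Syt1, the main fast sensor of forebrain synapses, ranged from 5728 CPM in L5 IT to 3238 CPM in Vip. Its fast paralogue Syt2 was at 171, 176, 162 and 161 CPM in Pvalb, 3.83-fold above L5 ET at 32.8, 61.5, 38.4 and 42.2 CPM, and 1.72 CPM on average in its lowest type, L6 CT. The 4 Pvalb libraries and the 4 L5 ET libraries did not overlap. Syt7, a slow high-affinity sensor, was highest in L6 CT at 306, 347, 258 and 292 CPM, followed by L5/6 NP at 224, 230, 278 and 256 CPM, and lowest in Vip at 47.3 CPM on average.

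Syt10, a synaptotagmin tied to regulated secretion, was highest in L6 IT at 27.3, 39.2, 42.5 and 53.0 CPM, overlapping L6 CT at 27.3, 17.7, 27.4 and 35.2 CPM. In Pvalb it was at 1.12, 0.213, 0.229 and 1.46 CPM, from 11 UMIs. Syt4, another synaptotagmin, ranged from 70.0 CPM in L4/5 IT to 23.5 CPM in Lamp5. The Doc2 genes, high-affinity sensors of spontaneous release, differed in their order. Doc2a was at 10.9 CPM in L5 IT and 1.18 CPM in Pvalb, whereas Doc2b was at 10.1 CPM in Lamp5, 8.95 CPM in Sst and 0.483 CPM in L4/5 IT.

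The SV2 genes encode vesicle transporter-like proteins, and each had its own territory. Sv2b was at 443, 437, 463 and 445 CPM in L6 IT, and the 7 excitatory types averaged 256 to 447 CPM. Pvalb was lowest for it at 6.02 CPM on average. Sv2c was at 418, 376, 469 and 399 CPM in Lamp5, 6.93-fold above L5 ET at 64.1, 70.1, 59.7 and 46.0 CPM, and at 1.29, 0.949, 1.92 and 1.65 CPM in L4/5 IT. Sv2a was the broadest, from 101 CPM in Pvalb to 42.7 CPM in L2/3 IT. As shares of SV2 UMIs, Sv2c supplied 77.1% in Lamp5, Sv2a 91.3% in Pvalb and Sv2b 88.4% in L6 IT.

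The synapsins, which hold vesicles in reserve, were spread more evenly. Syn1 ranged from 192 CPM in L4/5 IT to 106 CPM in Vip, Syn2 from 630 CPM in Vip to 195 CPM in L5 ET, and Syn3 from 263 CPM in L6 IT to 85.1 CPM in Pvalb. Syp lay between 78.5 CPM in Sst and 60.9 CPM in L5 ET.

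**Figure D2:**
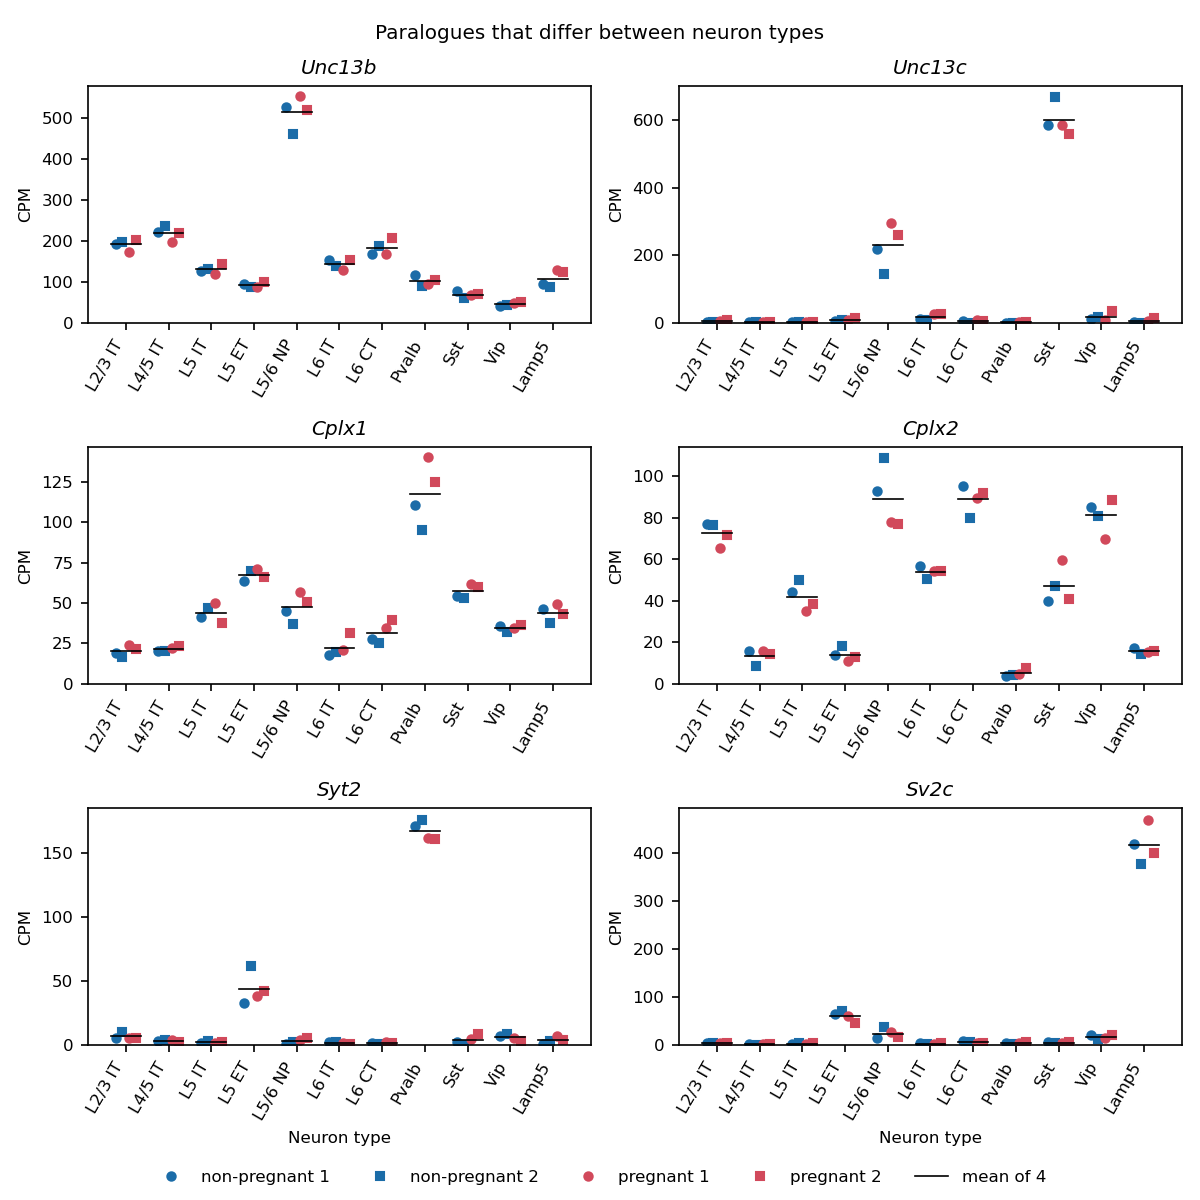
Level in CPM (y axis, linear) of 6 paralogues in each of the 11 neuron types (x axis), 1 point per library and bars at the mean of 4. The top type stood apart from the others in every library for Unc13b (L5/6 NP), Unc13c (Sst), Sv2c (Lamp5), Syt2 and Cplx1 (Pvalb), but not for Cplx2.

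Summed over the classes, 19 of the 41 genes were higher in excitatory than in inhibitory neurons in all 4 libraries, 16 were higher in inhibitory neurons in all 4, and 6 differed in direction between libraries. On the excitatory side Sv2b was at 381 ± 3.35 CPM (mean ± SD, n = 4 libraries) against 24.3 ± 12.5 CPM, 15.7-fold. Stx1a was at 88.7 ± 8.67 against 16.2 ± 4.04 CPM (5.47-fold), Syt10 at 12.6 against 3.32 CPM, Syt7 at 171 ± 7.82 against 67.9 ± 3.37 CPM (2.52-fold) and Unc13b at 188 ± 14.7 against 82.3 ± 6.20 CPM (2.29-fold). The inhibitory side was led by Unc13c at 167 ± 15.8 CPM against 10.1 ± 5.06 CPM, 16.5-fold. Syt2 followed at 69.5 ± 8.08 against 8.52 ± 1.73 CPM (8.16-fold) and Sv2c at 65.5 ± 5.44 against 9.69 ± 2.40 CPM (6.75-fold). Next in order were Cplx3 (6.43-fold), Ppfia4 (2.94-fold) and Cplx1, at 75.3 ± 10.5 against 29.2 ± 5.95 CPM (2.58-fold). As the values by type show, Syt2 and Cplx1 were highest in Pvalb neurons, Unc13c in Sst neurons and Sv2c in Lamp5 neurons.

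Glial nuclei were taken as a gauge of free RNA, on the premise that they lack most of this machinery. Relative to excitatory neurons of the same library, the median level of the 41 genes was 18.9% in astrocytes, 18.2% in oligodendrocytes, 15.3% in microglia and 44.4% in oligodendrocyte precursors. Some of the 41 genes lay far lower in astrocytes, with Rims1 at 1.78%, Erc2 at 1.85% and Rimbp2 at 1.96%. In oligodendrocyte precursors the same genes were at 46.8%, 20.2% and 35.4%. In precursors only 6 of the 41 genes lay below 20%, and 16 lay above 50%. What part free RNA and the cells' own RNA had there was not tested. Between 4 and 6 genes per glial type exceeded the excitatory level. In oligodendrocytes and in precursors the count includes Cplx3, which rested on 3 UMIs in each. The genes above that level included Vamp1, at 297% in astrocytes and 402% in microglia, Vamp2 at 188% and 217%, and Ppfia1, the widely expressed liprin-α, at 157% and 135%. All these percentages are ratios of CPM and do not compare molecules per nucleus. Median UMIs per nucleus were 2596.5 to 3290 in microglia and 14632 to 19859.5 in excitatory neurons.

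Unc13c was the gene whose glial level lay farthest above that of excitatory neurons. It reached 607, 568, 1002 and 1002 CPM in astrocytes and 928 ± 45.4 CPM (SD, n = 4) in oligodendrocyte precursors, but 1.06 CPM in oligodendrocytes and 2.70 CPM in microglia. Unc13c supplied 90.8% of Munc13 UMIs in astrocytes and 88.9% in precursors. Ppfia4 was another exception, at 91.0 CPM in microglia, 704% of the excitatory level.

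The comparison of pregnant with non-pregnant animals was made with edgeR on sums per library, and a gene was called at a Benjamini-Hochberg adjusted p below 0.05 over all genes tested. In the sums over all nuclei, 3 of the 41 genes were called, where 1.16% of 20895 genes were called. Unc13c rose from 34.5 and 39.3 CPM to 68.8 and 71.5 CPM, by 0.91 ± 0.08 on the log2 scale (SE, adjusted p = 0.00117). Sv2c rose from 14.7 and 12.9 CPM to 20.7 and 21.0 CPM (0.59 ± 0.10, adjusted p = 0.0235), and Cplx1 from 29.5 and 26.8 CPM to 39.8 and 38.7 CPM (0.47 ± 0.09, adjusted p = 0.0356). The groups did not overlap for these 3 genes. A gene called with so few libraries will tend to have groups that do not overlap. Here and below, non-overlap therefore describes a call and lends it no further weight. The share of all genes without overlap is not given. The median change of the 41 was 0.00, against 0.01 for all genes.

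Make-up moved with these differences. The limited clusters gave 0.115% of Unc13c UMIs in non-pregnant libraries on average and 20.0% in pregnant ones. The Sst share went from 43.4% to 26.2%, the oligodendrocyte precursor share from 22.9% to 11.6% and the astrocyte share from 16.4% to 21.9%. These are shares of a total that rose: the Sst nuclei gave 1333 and 1783 Unc13c UMIs against 1747 and 1717. For Sv2c the limited clusters went from 0.116% to 26.2% of the UMIs, and for Cplx1 from 0.346% to 11.3%, with L5 ET neurons going from 12.0% to 18.5%. Without the limited clusters 2 genes were called, where 1.09% of all genes were: Unc13c (0.78, adjusted p = 0.00602) and Cplx1 (0.48, adjusted p = 0.0466). With the same number of nuclei drawn from each fine cluster in every library none of the 3 was called, and the changes were 0.14 for Unc13c, 0.07 for Sv2c and 0.31 for Cplx1. Without pregnant 1 or without pregnant 2 none of the 3 genes was called either, with Unc13c at 0.90 and 0.93.

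In excitatory neurons 1 of 41 genes was called, where 1.03% of all genes were. Unc13c rose from 6.82 and 4.83 CPM to 14.1 and 14.8 CPM, by 1.31 ± 0.16 (adjusted p = 0.0143), with no overlap between the groups. Marker sums of the L5/6 NP list in the same excitatory sums were 137 and 110 CPM against 342 and 371 CPM, and those of the L5 ET list 95.5 and 91.8 CPM against 199 and 181 CPM. With equal nuclei per fine cluster the Unc13c change was 0.73 and not called, and it was 2.33 with the limited clusters counted as excitatory. The call was also lost without pregnant 1 or without pregnant 2, at 1.30 in both cases.

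The next excitatory genes did not pass the threshold. Cplx1 was at 25.2 and 23.2 CPM against 35.6 and 32.9 CPM (0.50 ± 0.10, adjusted p = 0.0562) and Syt10 at 9.80 and 10.2 CPM against 13.2 and 17.3 CPM (0.60 ± 0.12, adjusted p = 0.0612). In all, 8 of the 41 genes (19.5%) had an unadjusted p below 0.05, against 12.6% of all genes, and the median change was 0.01 for both. The changes of all 41 lay between -0.29 (Rims3) and 1.31 (Unc13c).

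In inhibitory neurons edgeR called 0 of 41 genes, where 0.293% of all genes were called. At an unadjusted p below 0.05 there were 8 genes, or 19.5%, against 8.03% of all genes, and DESeq2 also called 0. The smallest p belonged to Rims3, at 16.1 and 13.7 CPM against 20.4 and 22.4 CPM (0.52 ± 0.14, adjusted p = 0.152). Napb followed at 0.29 (adjusted p = 0.254), and Unc13c was at 0.18 (adjusted p = 0.585). Of the 41 changes 30 were positive, with a median of 0.07 against 0.00 for all genes.

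The difference of the pregnancy effect between the classes was tested in 1 model with the animal as a block, where 1.25% of all genes were called. Rims3 alone among the 41 genes passed, with an effect 0.83 ± 0.12 higher in inhibitory than in excitatory neurons on the log2 scale (adjusted p = 0.00165). Its excitatory values were 41.5 and 37.7 CPM against 32.3 and 32.6 CPM, lower in both pregnant libraries, and its inhibitory values were higher in both. Stx1a had a difference of 0.76 (adjusted p = 0.0741). The Unc13c difference was -1.12 (adjusted p = 0.296), so the excitatory and inhibitory effects on Unc13c were not shown to differ. With equal nuclei per fine cluster the Rims3 difference was 0.48 and not called, and without pregnant 2 it was 0.76 and not called.

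**Figure D3:**
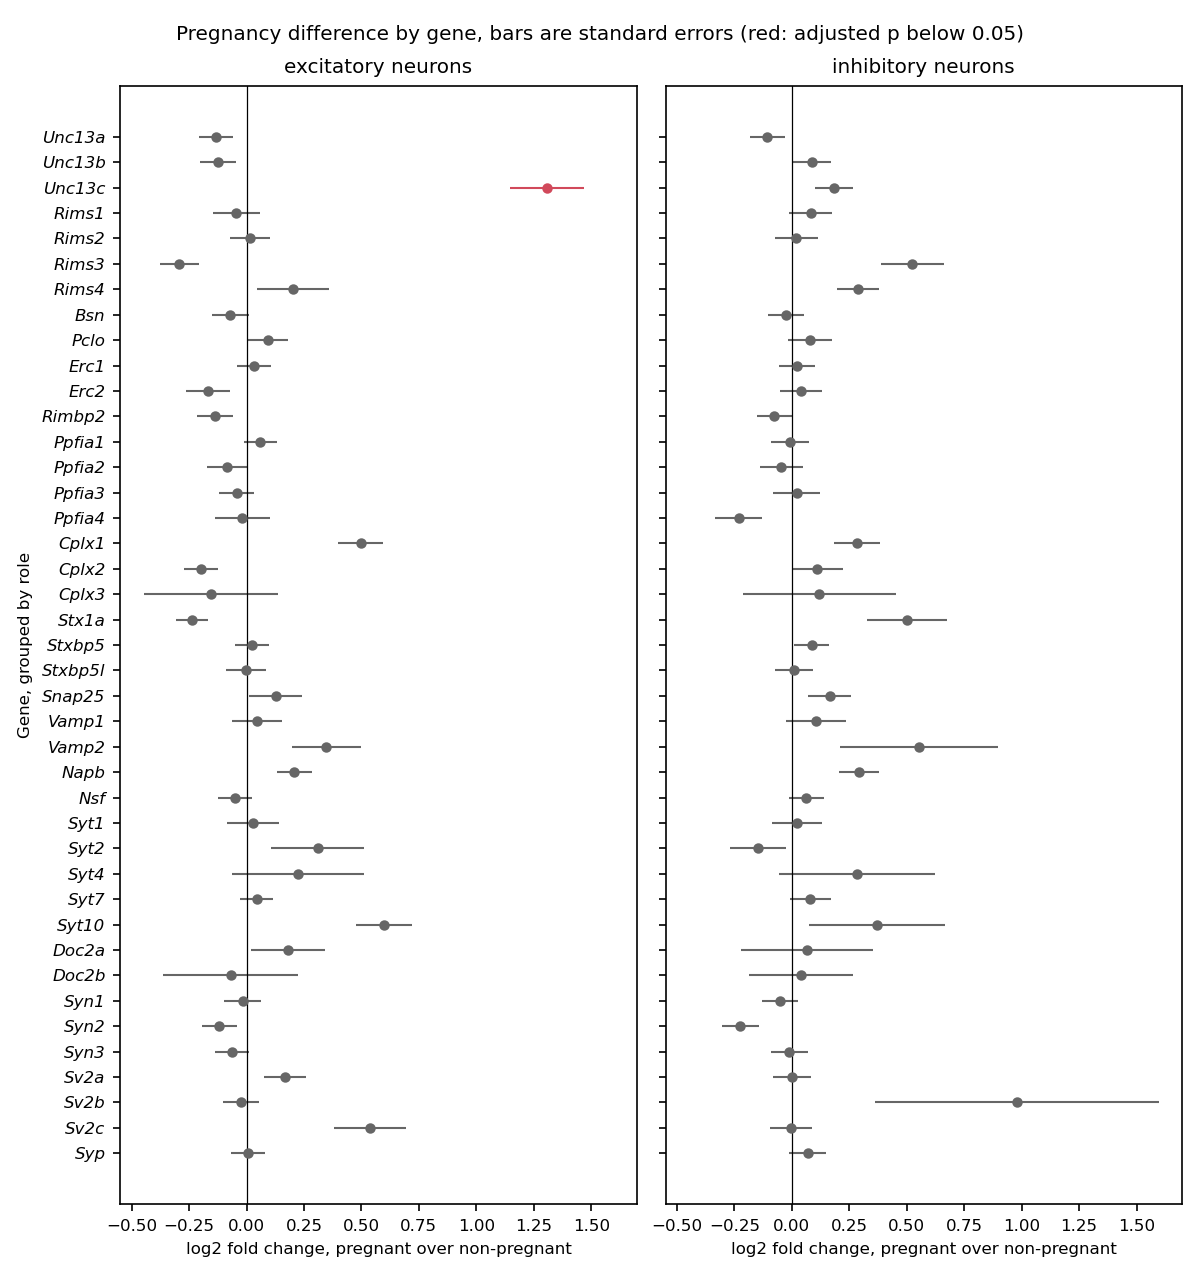
Change between the groups (x axis, log2, positive where pregnant animals were higher) for each of the 41 genes (y axis, grouped by role) in excitatory and in inhibitory neurons, with standard errors as bars and called genes in red. Unc13c at 1.31 in excitatory neurons is the 1 called gene, and most others lie near 0.

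Within single neuron types 3 of 429 gene and type pairs were called, all higher in pregnant animals, where 0.743% of the pairs of all genes were. At an unadjusted p below 0.05 there were 63 of the 429, beside 9.03% of the pairs of all genes. Of the 3 called pairs, 2 were in L6 IT neurons, deep-layer cells that project within the cortex, where 2 of 40 members and 0.676% of all genes were called. Unc13c rose there from 11.7 and 6.53 CPM to 25.9 and 24.2 CPM (1.50 ± 0.23, adjusted p = 0.00495). Syn3 rose from 229 and 195 CPM to 303 and 324 CPM (0.56 ± 0.10, adjusted p = 0.0107). Neither gene's groups overlapped, which with so few libraries adds no weight to the calls. Both calls held in all 12 alternatives tried, with Unc13c between 1.11 and 1.91 and Syn3 between 0.46 and 0.65.

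Other marker lists in the same L6 IT sums were as follows. The Sst list, whose cells carry the most Unc13c among neurons, summed to 32.6 and 13.3 CPM against 18.4 and 20.9 CPM over 6 of 6 genes, and the astrocyte list to 418 and 334 CPM against 352 and 299 CPM over 7 of 7, so neither was higher in both pregnant libraries. Oligodendrocyte precursors were the type richest in Unc13c by the mean of 4 libraries. Their list summed to 679 and 657 CPM against 771 and 648 CPM over 5 genes, which also overlapped. The L5/6 NP list summed to 7.34 and 2.65 CPM against 14.3 and 11.5 CPM over 6 of 6, in the direction of Unc13c. The L6 IT list itself also summed higher, 1303 and 1526 CPM against 1904 and 2023 CPM over 5 of 5. What part these had in the calls was not tested.

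Unc13c was also the 1 of 37 called in L5/6 NP neurons, where 1.72% of all genes were. It rose from 217 and 144 CPM to 295 and 259 CPM (0.64 ± 0.15, adjusted p = 0.0156). The L5/6 NP list in these sums went from 4836 and 4959 CPM to 5781 and 5704 CPM over 6 of 6 genes. This call was lost in 5 of 12 alternatives, among them equal nuclei per fine cluster (0.40), and leaving out non-pregnant 2 (0.39) or pregnant 1 (0.51). In Sst neurons, the richest neuronal source, Unc13c was at 586 and 667 CPM against 584 and 557 CPM (-0.14, adjusted p = 0.929).

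**Figure D4:**
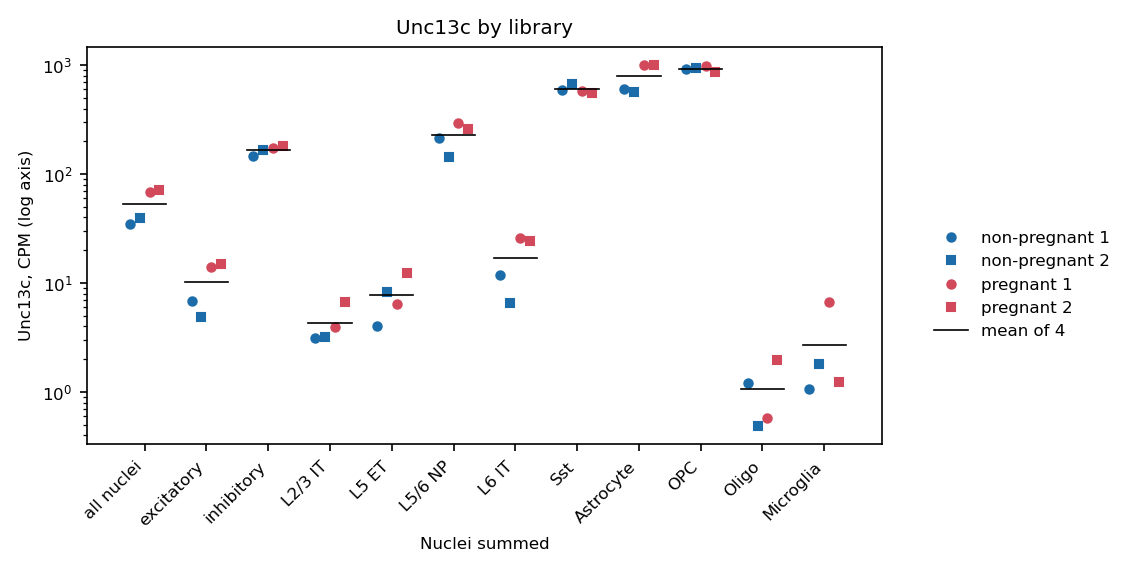
Unc13c in CPM on a log axis (y) for each library, summed over the nuclei named on the x axis, with bars at the mean of 4 (OPC, oligodendrocyte precursors; Oligo, oligodendrocytes). Pregnant points lie above both non-pregnant points in all nuclei, excitatory, inhibitory, L6 IT, L5/6 NP and astrocyte sums, as well as in L2/3 IT sums, and below both in Sst sums.

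In glia 10 of 121 gene and type pairs were called, all higher in pregnant animals, where 0.550% of the pairs of all genes were. At an unadjusted p below 0.05 there were 37 of the 121, beside 7.71% of the pairs of all genes. Astrocytes had 3 of 31, where 0.395% of all genes were called. Unc13c rose by 0.74 ± 0.12 (adjusted p = 3.63e-05), Snap25 from 78.9 and 51.2 CPM to 130 and 165 CPM (1.19 ± 0.18, adjusted p = 6.1e-06) and Syt1 from 204 and 135 CPM to 237 and 268 CPM (0.58 ± 0.14, adjusted p = 0.0342). The 5 excitatory class markers in astrocyte sums were at 50.9 and 25.6 CPM against 63.9 and 40.9 CPM, which overlapped, and the 6 inhibitory class markers at 84.0 and 63.1 CPM against 76.9 and 111 CPM. In the non-pregnant libraries Unc13c averaged 588 CPM in astrocytes and 627 CPM in Sst neurons, its highest neuron type, and in the pregnant ones 1002 CPM and 571 CPM. The Syt1 call was lost in 7 of 12 alternatives, among them without non-pregnant 2 (0.31), pregnant 1 (0.63) or pregnant 2 (0.51).

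Microglia had 6 of 29, where 1.50% of all genes were called. Rims2 rose from 24.7 and 17.1 CPM to 67.0 and 62.8 CPM (1.62 ± 0.30, adjusted p = 0.00054). Pclo rose from 48.4 and 38.7 CPM to 122 and 76.3 CPM (1.14 ± 0.24, adjusted p = 0.00335). Stxbp5l rose by 1.49 (adjusted p = 0.00682), Cplx1 by 1.71 (0.0184), Snap25 by 0.61 (0.0187) and Syt1 by 0.51 (0.0265), each with groups that did not overlap.

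Markers of other cells moved in the same microglial sums. The oligodendrocyte precursor list was at 18.3 and 18.0 CPM against 80.4 and 92.3 CPM, the 6 inhibitory class markers at 58.1 and 35.1 against 87.1 and 116 CPM, and the erythroid list at 20.4 and 9.01 against 95.5 and 91.1 CPM. The 5 excitatory class markers were at 126 and 77.5 CPM against 126 and 122 CPM. Their part in the microglial result was not tested. The Rims2 call held without any 1 library, whereas Pclo was lost without pregnant 1 (0.78) and Stxbp5l likewise (1.41). Cplx1 was lost without non-pregnant 1 (1.65), non-pregnant 2 (1.76) or pregnant 2 (1.39). Snap25 was lost without non-pregnant 2 (0.34) or pregnant 2 (0.51), and so was Syt1 (0.29 and 0.38). DESeq2 called 1 of the 10 glial pairs, Unc13c in astrocytes.

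Oligodendrocyte precursors had 1 of 31, where 0.135% of all genes were called: Syt1, at 233 and 156 CPM against 290 and 321 CPM (0.65 ± 0.15, adjusted p = 0.0431). Without non-pregnant 2 (0.37) or pregnant 2 (0.60) it was not called. The excitatory class markers in these sums were at 32.2 and 23.6 CPM against 50.0 and 58.4 CPM. Unc13c, whose mean over the 4 libraries was highest in this type, did not pass the edgeR test (-0.04, adjusted p = 0.996). In oligodendrocytes edgeR called 0 of 30, where 0.185% of all genes were called, with 10 at an unadjusted p below 0.05 (8.10% of all genes) and a median change of 0.41. The median was 0.55 in microglia, 0.17 in astrocytes and 0.09 in precursors, and that of all genes lay within 0.01 of 0 in these types.

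**Figure D5:**
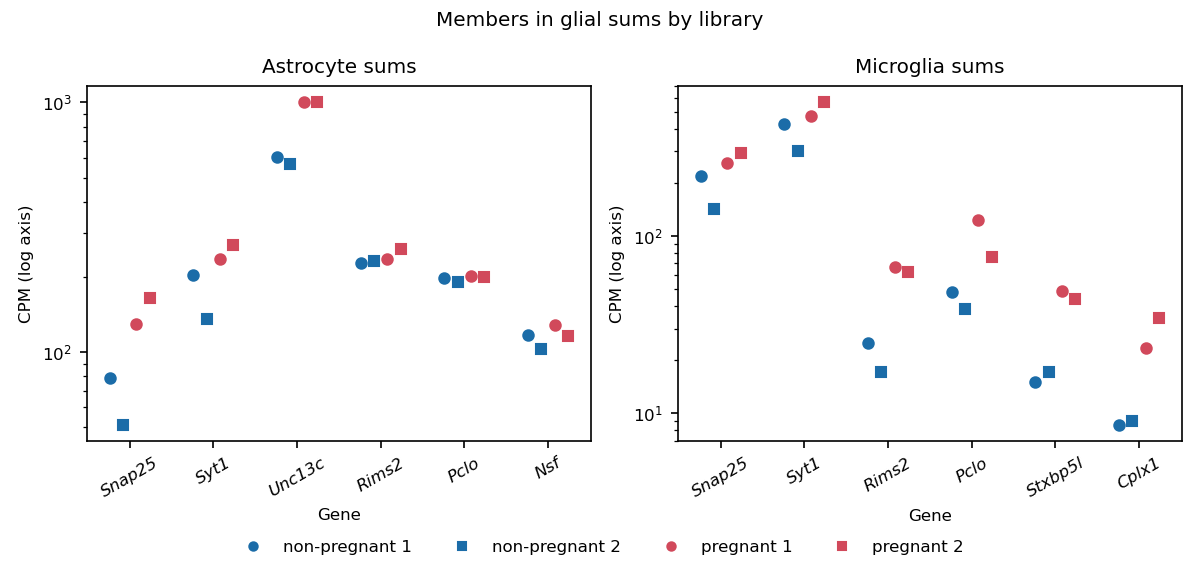
CPM on a log axis (y) of 6 genes (x axis) in astrocyte sums and 6 in microglia sums, 1 point per library. Both pregnant points lie above both non-pregnant points for the 3 called genes of astrocytes (Snap25, Syt1, Unc13c) and the 6 of microglia. With so few libraries this describes the calls and adds no weight to them.

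The 4 clusters nearly limited to pregnant animals are described here for the 2 pregnant libraries only. The pooled excitatory sums set beside them hide differences between types. Over the 4 libraries Unc13c was at 144 to 295 CPM in L5/6 NP neurons. Cluster 30, led by the receptor genes Htr2c and Htr4 and by Slc17a6, the vesicular glutamate transporter of subcortical neurons, had 396 and 417 CPM of Unc13c against 14.1 and 14.8 CPM in excitatory neurons of the same libraries. It also had 232 and 217 CPM of Sv2c, against 13.0 and 9.94 CPM, and 629 and 622 CPM of Syn3, against 148 and 170 CPM. Cplx2 was at 129 and 132 CPM there, against 41.6 and 46.3 CPM. Sv2c is among the genes that lead this cluster, so its level there is a description.

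The other three clusters differed from it and from each other. Cluster 22, led by Cpa6 and Tshz2, had 81.1 and 92.7 CPM of Unc13c, whereas cluster 27, led by Tshz2 and Olfm3, had 3.81 and 1.22 CPM. Cluster 29, led by Fyb2 and Slc26a4, had 35.8 and 31.2 CPM of Sv2c and 27.7 and 22.6 CPM of Syt2. These values lay below those of L5 ET neurons over the 4 libraries, at 46.0 to 70.1 CPM of Sv2c and 32.8 to 61.5 CPM of Syt2.

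A further 70 presynaptic genes (69 of them in the tables) came from general knowledge of the pathway, also with earlier results of these data known. They included Rab3 proteins, endocytic factors and vesicular transporters. None of the 67 tested in excitatory neurons was called by edgeR, and DESeq2 called 2. Of the 67, 12 (17.9%) had an unadjusted p below 0.05, where 12.6% of all genes did. In all nuclei 2 of 68 fell: Slc17a7, the main cortical vesicular glutamate transporter, by 0.39 and Tspoap1, a RIM-binding protein, by 0.36. L5 ET neurons had 5 of 62, where 3.15% of all genes were called, among them Slc17a6 at 2.12, Slc17a7 at -0.67, Synpr at 0.61 and Lin7a at 0.50.

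L5 IT neurons had 2 of 63, where 1.00% of all genes were called, Synpr (1.73), which encodes synaptoporin, and Slc17a7 (-0.46). L6 CT neurons had 3 of 64, where 0.688% were called: Lin7a (0.73), Mctp2 (1.57) and Syt6 (-0.62). L5/6 NP neurons had 2 of 58, where 1.72% were called, Rab3c (-0.57) and Apba1 (0.52). Vip neurons had Lin7a (0.97), where 0.0369% of all genes were called, and Pvalb neurons Syt11 (0.47), where 0.693% were. In astrocytes 2 of 54 were called, where 0.395% of all genes were: Syt5 (3.40) and the endocytic gene Dnm1 (1.31). Microglia had 4 of 49, where 1.50% of all genes were called, among them Dnm1 (1.15) and Nrxn3 (0.81).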

How the data were processed

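Droplet libraries of cortical nuclei (10x Genomics 3' chemistry, v4 reagents per the labels' protocols) were processed by the authors with Cell Ranger 10.0.0 against GRCm39, per the submitters' processing notes, and deposited as raw UMI counts per gene and barcode; other settings, such as the counting of intronic reads, are not given in the sources used here. All 41 members, the gene lists and the thresholds for naming clusters were chosen with earlier results of these data known.

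Nuclei with at least 500 genes and at most 5% mitochondrial UMIs were kept (26350 of 26816), and the top 5% by simulated doublet score in each library (60 neighbours, 2 simulated doublets per nucleus) were removed. Clustering used scanpy 1.11.5 on 2000 variable genes without the members, 40 components, 20 neighbours and resolution 1. A cluster was named where at least 3 markers of 1 of 33 lists were detected and its score reached 0.75, and clusters with a 5-fold gap in share between groups were set apart, both thresholds being set after clusters were seen. Per library and type, UMIs were summed and tested with edgeR 4.0.16 (quasi-likelihood, TMM, filterByExpr minimum count 10, R 4.3.3); DESeq2 1.42.0 was an alternative. The fit was tested on simulated data. Alternatives were other filters, scalings and clusterings, equal nuclei per fine cluster (resolution 2), and leaving out each library.

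Values per library are printed for the Unc13, Rims, Cplx and Syt genes at the ends of their orders, for the widest-ranging members of each role, and for members called for pregnancy; other presynaptic genes are named up to 4 per unit by smallest p, and some of them are not reported here. The animals are separate per the labels. Upstream windows came from RefSeq (GRCm38.p6), a different build from the counts, with 26 of 32 genes checked against transcript starts; they were read for sequence only.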

Additional observations from a re-analysis of the deposited data

Results flagged for a closer look

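Rims3 stands out because its pregnancy difference was not the same in the 2 neuron classes: the test of the difference gave 0.83 on the log2 scale (inhibitory minus excitatory, edgeR adjusted p = 0.00165). In excitatory neurons both pregnant libraries were below both non-pregnant ones, and in inhibitory neurons both were above. Among neuron types Rims3 was highest in L4/5 IT (61.9 CPM) and lowest in L5 ET (3.43 CPM). L4/5 IT neurons made up 23.7% and 23.6% of non-pregnant nuclei and 17.8% and 15.3% of pregnant ones. For L5 ET neurons the shares were 2.97% and 2.14% against 4.72% and 3.86%. What part make-up had in the class difference was not tested. In neither class did Rims3 pass the test by itself (adjusted p = 0.171 and 0.152). The difference was called in 10 of 12 alternatives, and not without pregnant 2 (0.76) or with equal nuclei per fine cluster (0.48).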

How the results depend on the processing

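Counts of called members depended on the settings, and no fold change of a called member reversed. Excitatory neurons had 1 called member, and 4 without the low count filter, 3 with DESeq2, 2 at clustering resolution 2, 2 with members used in clustering, 0 with equal nuclei per fine cluster, 3 with limited clusters counted, and 0 to 8 with 1 library left out (0 without either pregnant one). Inhibitory neurons had 0, with 2 unfiltered and 0 to 6 with 1 library left out (6 without non-pregnant 1). Neuron pairs went from 3 to 18 unfiltered, 5 at resolution 2 and 5 to 37 with 1 library left out (37 without non-pregnant 1), and glial pairs from 10 to 1 with DESeq2, 4 with equal nuclei and 5 to 17. All nuclei gave 3, with 0 for equal nuclei and 0 to 7. The class difference gave 1, with 5 unfiltered, 2 with each of DESeq2, resolution 2, equal nuclei and limited clusters counted, and 0 to 4. Other presynaptic genes in excitatory neurons gave 0, with 3 unfiltered, 2 with DESeq2, 1 at resolution 2, 2 with limited clusters counted and 0 to 12. With RLE factors or without the doublet filter each of these counts stayed within 1.5 times. For these alternatives the share of all genes called is not given. A rise among the members therefore cannot be told from a rise over all genes. The causes were not tested.

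Replicate numbers come from titles and pair no animals: same-numbered libraries correlated between -0.12 and 0.07 in their deviations from group means. With the replicate block, called members went to 3 in excitatory neurons, 7 neuron pairs, 4 glial pairs and 2 other presynaptic genes. Unc13c in astrocytes was no longer called under the block (0.74, adjusted p = 0.0613). The class test already holds the animal as a block. Counting the limited clusters gave no separate value for inhibitory, type or all-nuclei results. Of 1155 comparisons of mean levels by type, 1106 moved by less than 1 SD.

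Limits: with 2 animals a group, a lone library is assumed to vary like the others when 1 is left out, and intervals cover these animals only. Microglia (2596.5 to 3290 UMIs per nucleus) and oligodendrocytes (3225 to 4220) are shallow, and low genes there rest on few UMIs. The cortical area and batch of each library are not stated in the labels.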
